A study of Mus musculus with 4 samples.

Results

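Rab GTPases and TBC-domain regulators were followed in LPS-stimulated mouse macrophages that had received MB-3 or only its solvent. The members were all genes named Rab or Tbc1d with a number in the deposited table, kept where at least 10 counts were summed over the 4 libraries. This gave 77 of 34745 genes, of which 49 were Rab genes and 28 were Tbc1d genes. A further 13 matching genes fell under the minimum, and 8 of these had no count in any library. Members were thus selected on their name and on this summed count, with no use of how the counts split between groups. Rab44 with 10 counts and Rab36 with 11 stood just inside the minimum, and Rab27b with 8 and Rab26 with 6 just outside it.

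The cells were peritoneal macrophages that thioglycolate had elicited in wildtype C57BL/6 mice, collected 3 days after 2 ml of 3% medium had been injected and kept as adherent cultures. The sample labels call them peritoneal, while the series title calls them bone marrow-derived. Both groups received lipopolysaccharide (LPS), a bacterial cell wall component, at 100 ng/ml over 4 hours. MB-3, which has been described to inhibit the acetyltransferase GCN5 (Kat2a), was given beforehand at 50 µM to one group and DMSO to the other. There were 2 libraries per group, made from oligo(dT)-selected RNA, with 15598531 to 21320618 counts each. Cells without LPS were not analysed here, so every difference is between LPS-stimulated groups. No label says that replicates came from separate animals or cultures, so the p-values reflect only how these libraries vary, which may be technical.

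The macrophage markers Lyz2, Cd68, Csf1r, Adgre1, Itgam, Mertk and Fcgr1 were all detected, with summed levels of 23300 to 23800 CPM (counts scaled to a common library total, with TMM factors) with DMSO and 30300 to 30500 with MB-3. Lyz2 gave most of this sum (21560 and 22130 CPM, against 28300 in both MB-3 libraries), and the list did not move as one: Lyz2, Cd68, Csf1r and Itgam rose, Mertk (log2 -1.37) and Fcgr1 (log2 -2.38) fell, and Adgre1 was not called. Lists for B, T and NK cells, mast cells, eosinophils and dendritic cells summed to at most 8.05 CPM in any library. The neutrophil list summed to 21.6 to 22.2 CPM with DMSO and 9.99 to 12.3 with MB-3, nearly all of it from S100a8, with Ly6g and Elane at 0 counts. The fibroblast and mesothelium list ranged from 14.6 to 36.8 CPM with DMSO and from 22.2 to 46.1 with MB-3. The part of other cells in the results was not tested. The 10 most abundant genes took 13.1 to 13.3% of counts with DMSO and 19.0 to 19.4% with MB-3. In bulk RNA, fewer cells of a type and less RNA per cell cannot be told apart.

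Rab proteins are small GTPases that mark membranes and recruit the machinery that moves, tethers and fuses vesicles. Guanine nucleotide exchange factors switch a Rab on, and GTPase-activating proteins, most of which carry a TBC domain, switch it off. Each compartment has its own Rabs. In macrophages they govern the path from phagosome to lysosome, the recycling of surface receptors and the secretion of cytokines.

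MB-3-treated cells had far more Rab7b transcript and more Rab43. Rab32, Rab38 and Rab27a, which act on lysosome-related organelles and secretory granules, were lower, as were the Golgi Rabs Rab19 and Rab6b. Among Tbc1d genes Tbc1d16, Tbc1d2, Tbc1d10a and Tbc1d12 rose at least 2-fold and Tbc1d13 fell. Of the 69 members that passed the filter on low counts, 20 were higher and 11 lower at an adjusted p under 0.05 by edgeR's quasi-likelihood method, with Benjamini and Hochberg's adjustment over 11841 genes. The same test called 37.1% of all tested genes, 16.9% as higher and 20.2% as lower, against 44.9% of the tested members. The median log2 fold change (MB-3 minus DMSO) was 0.05 over the members and -0.01 over all genes. The groups did not overlap for 52 members (75.4%), beside 70.8% of all genes. The other 8 members, Rab30, Rab33a, Rab36, Rab37, Rab39, Rab3a, Rab44 and Tbc1d30, held 10 to 44 counts in all and were not tested.

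Of 42 tested Rab genes 9 rose and 7 fell (38.1% called, beside 37.1% of all tested genes), with a median log2 fold change of 0.01. Of 27 tested Tbc1d genes 11 rose and 4 fell (55.6% called), with a median of 0.34. The difference between these counts was not tested. The counts moved when a library was left out, and over all genes those called lower became fewer in each such fit. The members called higher numbered 13 without DMSO replicate 2, 11 without MB-3 replicate 1 and 12 without MB-3 replicate 2. All genes called higher also became fewer in these fits, 1717, 1283 and 1447 in place of 1999. The Rab genes called higher numbered 5 without DMSO replicate 2 or MB-3 replicate 1. The Tbc1d genes called higher numbered 6 without either MB-3 replicate, and those called lower numbered 2 without DMSO replicate 1 or MB-3 replicate 2. A change of 2-fold or more with a call was seen in 12 members, 6 in each direction, while 5.26% of all tested genes rose and 9.32% fell by that much.

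**Figure D1:**
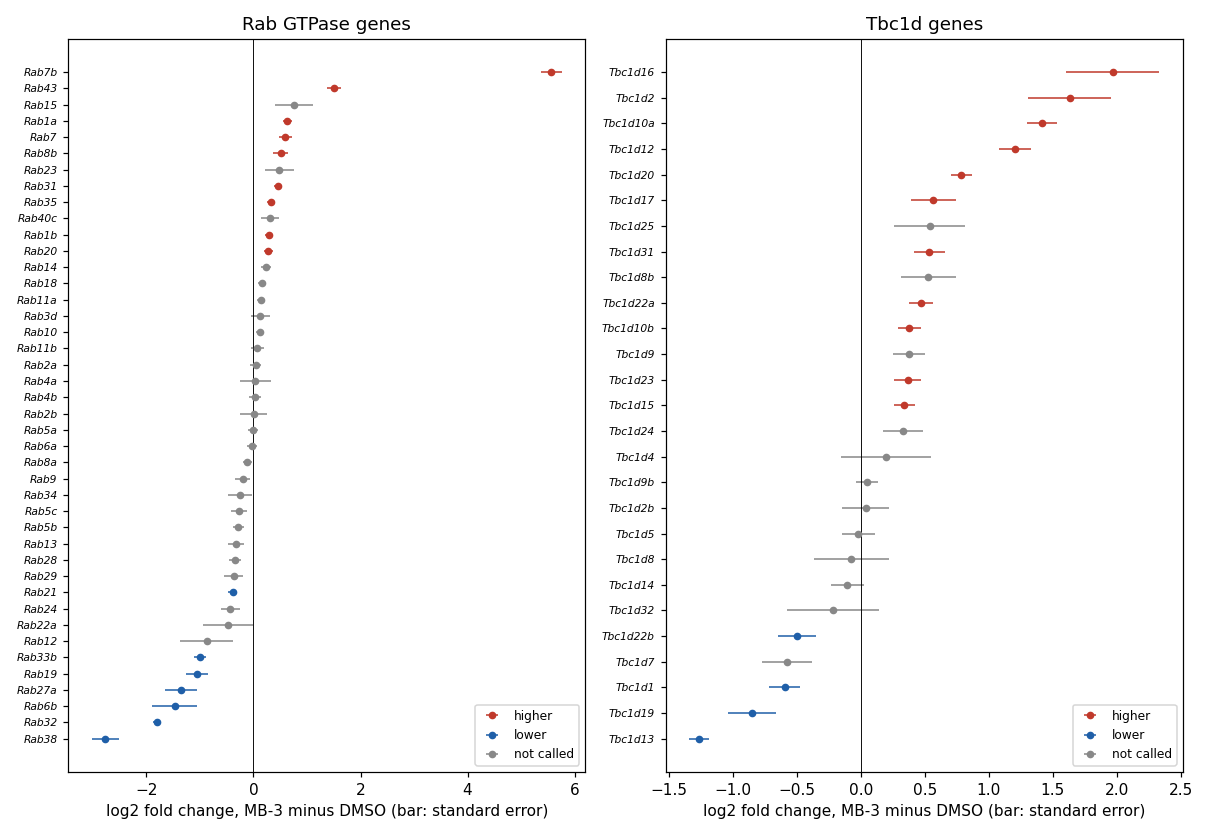
Log2 fold change (MB-3 minus DMSO, edgeR) of the 42 tested Rab genes at left and the 27 tested Tbc1d genes at right, with bars for 1 standard error and colours for the call. Rab7b at 5.56 stands apart from the next Rab gene, Rab43 at 1.51, and 15 of 27 Tbc1d genes are coloured, 11 of them as higher.

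Among Rabs of late endosomes, lysosomes and autophagy, 2 of 8 tested genes rose and 1 fell (37.5% called, beside 37.1% of all tested genes). Rab7b (ENSMUSG00000052688, chromosome 1, 131688695 to 131715439, mm10), a GTPase of traffic between late endosomes and the trans-Golgi that has been described as dampening Toll-like receptor 4 signalling in macrophages, had the largest change of all tested members. Its level was 13.5 and 8.83 CPM with DMSO but 532.5 and 535.9 CPM with MB-3. Both MB-3 libraries lay far above both DMSO libraries, and the rise was 47.3-fold (log2 fold change 5.56, SE 0.20, adjusted p = 1.3e-05). Rab7 (chromosome 6, 87999106 to 88045270), the main Rab of the late endosome and of fusion with the lysosome, stood at 521.6 and 572.6 CPM with DMSO and at 739.8 and 917.9 with MB-3. Its 1.51-fold rise (log2 0.60, SE 0.12, adjusted p = 0.00875) was small beside that of Rab7b, and its groups did not overlap. A processed pseudogene, Rab7-ps1, matches Rab7 at 98.4% of bases over a stretch of 622 bases. It has no entry of its own in the deposited table, so Rab7 counts could include its reads.

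The Rab7 and Rab7b transcripts were compared per length, as FPKM, which divides counts by gene length and library size. Rab7b made up 2.79% and 1.68% of the summed Rab7 and Rab7b FPKM in the DMSO libraries. In the MB-3 libraries it made up 44.4% and 39.3%. Per exon base of GENCODE M21, which gives Rab7 a much shorter length, the shares were 1.44% and 0.86% with DMSO and 28.9% and 24.8% with MB-3. Rab7b ranked 33rd and 34th among the 49 Rab members by FPKM with DMSO, and 5th and 4th with MB-3. The gene that lies 151.8 kb away, Rab29, was not called (log2 fold change -0.37, SE 0.18, edgeR adjusted p = 0.16).

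Rab33b, a Golgi Rab that binds the autophagy protein Atg16l1, fell. Its levels were 31.3 and 28.4 CPM with DMSO and 15.3 and 14.7 CPM with MB-3 (log2 -0.99, SE 0.11, edgeR adjusted p = 0.00113). Both MB-3 libraries were near the same level and well under the DMSO libraries. A stretch of Rab33b's transcript matches other genes at high identity, so its counts are less certain. Rab9, Rab24, Rab29 and Rab34 had log2 fold changes from -0.43 to -0.20 with no call. Rab24 shares 62.4% of its exon bases with Prelid1 on the opposite strand, and whether counting used strand is not given in the sources used here.

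**Figure D2:**
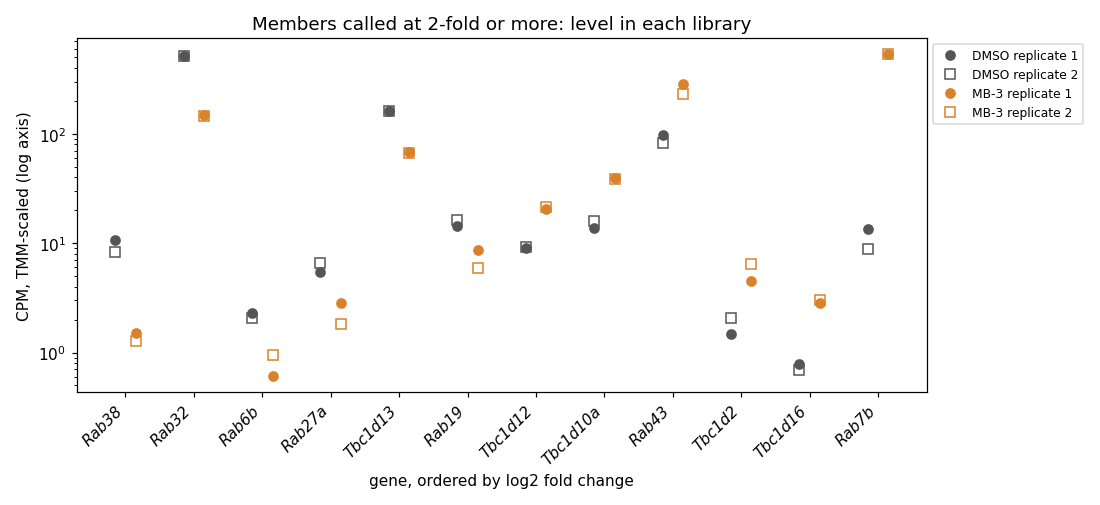
Level in each library (TMM-scaled CPM, log axis) of the 12 members called at 2-fold or more, ordered by log2 fold change, with grey marks for DMSO, orange for MB-3, circles for replicate 1 and squares for replicate 2. For every gene shown both MB-3 marks lie on the same side of both DMSO marks. The genes were picked by their call in these same libraries, which favours such separation. Of all tested genes 70.8% also had groups that did not overlap. Rab38, lowest in fold change, is at 10.7 and 8.27 with DMSO against 1.51 and 1.28 with MB-3. Rab7b, highest in fold change, is at 13.5 and 8.83 against 532.5 and 535.9.

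Of 8 tested Rabs of secretion and of lysosome-related organelles, 3 fell and 1 rose (50% called, beside 37.1% of all tested genes). Rab32 and Rab38 are close relatives that direct cargo to melanosomes and other lysosome-related organelles, and Rab32 also acts on vacuoles that hold bacteria. Rab32 (ENSMUSG00000019832, chromosome 10, 10545011 to 10558233) was the most abundant Rab by FPKM in both DMSO libraries, at 244 and 249.7, and stood at 68.0 and 69.7 with MB-3. In CPM it went from 511.1 and 514.5 to 148.4 and 146.5, a 3.48-fold fall (log2 -1.80, SE 0.07, adjusted p = 1.7e-05). Its replicates were nearly equal within each group. Rab38 (chromosome 7, 88430273 to 88491466) fell 6.78-fold, from 10.7 and 8.27 CPM to 1.51 and 1.28 CPM (log2 -2.76, SE 0.26, adjusted p = 4.74e-04). Both relatives were therefore lower in both MB-3 libraries.

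Rab27a, which docks secretory granules and exosome-bearing endosomes at the plasma membrane, went from 5.50 and 6.52 CPM to 2.85 and 1.84 CPM. The 2.55-fold fall passed the edgeR threshold (log2 -1.35, SE 0.29, adjusted p = 0.0137) but did not do so without DMSO replicate 2 (log2 -1.22, adjusted p = 0.0525). The counts of Rab8b, an exocytic Rab, could include reads of the processed pseudogene Gm20689, identical over 279 bases and without its own entry. Rab8b went from 503.3 and 385.9 CPM to 690.1 and 573.4 CPM (log2 0.51, SE 0.15, adjusted p = 0.0381). The threshold was missed on leaving out DMSO replicate 2 (adjusted p = 0.0709) or MB-3 replicate 1 (adjusted p = 0.156). Its close relative Rab8a, at 135.2 and 142 CPM with DMSO and 131.2 and 125.2 CPM with MB-3, was not called (log2 -0.11, SE 0.08, adjusted p = 0.31). Rab3d, Rab10 and Rab13, which also serve secretory and junctional traffic, had log2 fold changes from -0.33 to 0.13 with no call.

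The make-up of the Rab transcript pool differed between the groups. The FPKM of the 49 Rab members summed to 1412 and 1395 with DMSO and to 1369 and 1348 with MB-3. Rab32 held 17.3% and 17.9% of that sum with DMSO and 4.96% and 5.17% with MB-3. Rab7b held 0.15% and 0.10% with DMSO and 5.86% and 6.22% with MB-3. Rab8b went from 7.56% and 5.97% to 10.3% and 9.0%, and Rab7 from 5.23% and 5.90% to 7.33% and 9.61%. By FPKM the leading Rab was Rab32 in both DMSO libraries, Rab8b in MB-3 replicate 1 and Rab7 in MB-3 replicate 2. This order depends on the gene lengths behind the FPKM, which differ from the exon lengths of GENCODE M21, as for Rab7 (7113 against 2610 bases). Counts per GENCODE exon base, a comparison chosen after seeing the data, put Rab32 first and Rab7 second with DMSO and Rab7 first in both MB-3 libraries. On that scale Rab32 held 13.8% and 14.3% with DMSO and 3.73% and 3.78% with MB-3. The 28 Tbc1d members together summed to only 158.4 and 149.5 FPKM with DMSO and 176.4 and 176.8 with MB-3.

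**Figure D3:**
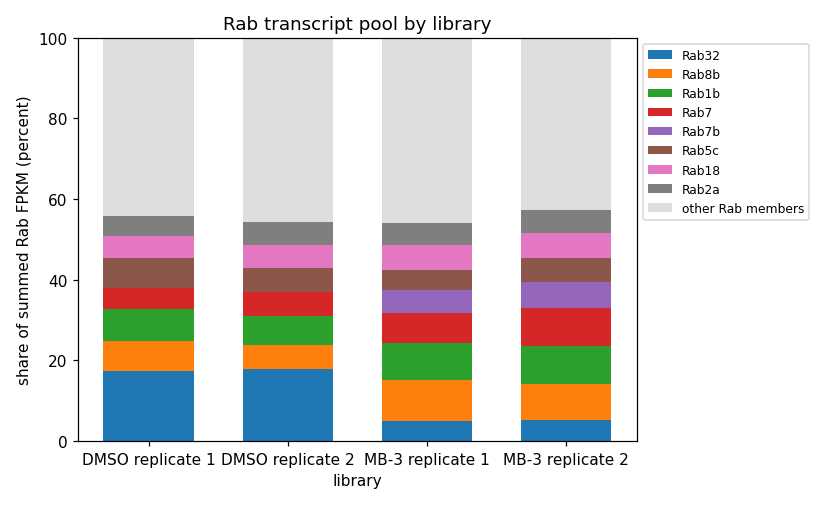
Share of the summed FPKM of all 49 Rab members (percent, stacked bars) in each library, with the 8 named genes coloured and the others in light grey. Rab32 takes 17.3% and 17.9% in the DMSO bars and 4.96% and 5.17% in the MB-3 bars, where Rab7b takes 5.86% and 6.22%.

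Of 9 tested Rabs of the endoplasmic reticulum, the Golgi and lipid droplets, 3 rose and 2 fell (55.6% called, beside 37.1% of all tested genes). Rab43 (chromosome 6, 87788853 to 87812164), a Rab of endoplasmic reticulum to Golgi traffic that has also been tied to cross-presentation in dendritic cells, stood at 98.3 and 82.8 CPM with DMSO and at 285.7 and 230.1 with MB-3. This was a 2.85-fold rise (log2 1.51, SE 0.14, adjusted p = 4.06e-04). Rab43 overlaps the predicted gene Gm45140 on the same strand over 75.4% of its exon bases. Gm45140 held 130 counts in all and Rab43 12667, and how reads of the shared bases were assigned is not known, so the Rab43 counts are less certain. Rab1a and Rab1b carry cargo from the endoplasmic reticulum to the Golgi. Rab1a went from 245 and 251.8 CPM to 406.4 and 361.5 CPM (log2 0.63, SE 0.08, adjusted p = 0.00205). Rab1b went from 200 and 179.9 CPM to 235.5 and 229.5 CPM (log2 0.29, SE 0.08, adjusted p = 0.0349), with the call lost without DMSO replicate 2 (0.0988), MB-3 replicate 1 (0.131) or MB-3 replicate 2 (0.0928).

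Rab19, a little-studied Golgi Rab, fell from 14.3 and 16.3 CPM to 8.72 and 5.97 CPM (log2 -1.06, SE 0.21, edgeR adjusted p = 0.0101). Rab6b, the Rab6 form best known from neurons, was rare throughout, at 2.28 and 2.07 CPM with DMSO and 0.61 and 0.95 CPM with MB-3 (log2 -1.47, SE 0.42, adjusted p = 0.0365). The Rab6b call was lost whichever library was left out, and also with all libraries in DESeq2 (adjusted p = 0.128). Rab6a, the ubiquitous form, stood at 73.7 and 68.3 CPM with DMSO and at 69.3 and 70.3 CPM with MB-3, and its groups overlapped. Rab2a, Rab2b and Rab18 were not called, with log2 fold changes from 0.00 to 0.16.

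Of 14 tested Rabs of early and recycling endosomes, 3 were higher and 1 lower (28.6% called, beside 37.1% of all tested genes). The 3 Rab5 genes, which define the early endosome, were not called. Rab5a was at 114.8 and 124 CPM with DMSO and at 124.1 and 114 CPM with MB-3, with overlapping groups. Rab5b counts could include reads of the processed pseudogene Gm13991, 99.4% identical over 648 bases and without an entry in the deposited table. Rab5b was at 186.9 and 178.3 CPM against 161.9 and 139.1 CPM (log2 -0.28, SE 0.10, adjusted p = 0.0651). Its groups did not overlap, and it was called as lower in 6 of 11 alternatives, among them the fit without MB-3 replicate 1 (0.0445). Rab5c was at 400.3 and 302.8 CPM against 265.7 and 314.7 CPM, with overlapping groups (log2 -0.28, SE 0.15, adjusted p = 0.196), but it was called without DMSO replicate 2 (adjusted p = 0.0295). Rab31, which moves cargo between the trans-Golgi and endosomes, rose from 107.1 and 101.4 CPM to 146.4 and 141 CPM (log2 0.46, SE 0.08, adjusted p = 0.00559). Rab21, known for the endocytosis of integrins, fell from 107.5 and 103.8 CPM to 80.5 and 81.1 CPM (log2 -0.39, SE 0.08, adjusted p = 0.0108).

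The changes of Rab35, a Rab of fast recycling, Rab20, a Rab of phagosomes, and Rab21 were small, and their calls were lost when single libraries were left out. The Rab35 log2 fold change was 0.33 (SE 0.08, edgeR adjusted p = 0.0228), and leaving out DMSO replicate 2 or either MB-3 replicate gave 0.0663 to 0.0952. The Rab20 log2 fold change was 0.28 (SE 0.09, adjusted p = 0.0447), and any library left out gave 0.057 to 0.155. Rab21 gave 0.0551 to 0.0615 without DMSO replicate 1 or either MB-3 replicate. Rab4a, Rab4b, Rab11a, Rab11b, Rab14 and Rab15, which serve recycling endosomes, were not called, and Rab11b is less certain because the pseudogene Rab11b-ps2, nearly identical over 654 bases, has counts of its own. The 3 Rabs placed with cilia or other sites, Rab23, Rab28 and Rab40c, were also not called.

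A pair of endosomal Rabs differed between the MB-3 libraries themselves. Rab12, a Rab of recycling to lysosomes and a substrate of the kinase LRRK2, stood at 208.5 and 215.5 CPM with DMSO, and at 180 and 52.1 CPM in MB-3 replicates 1 and 2. Rab22a, a Rab of endosomal recycling, stood at 154.3 and 136.3 CPM with DMSO, and at 158.6 and 50.3 CPM with MB-3. Both were far lower in MB-3 replicate 2 than in any other library, and Rab12 in MB-3 replicate 1 also lay under both DMSO libraries. Neither was called (log2 -0.87, SE 0.50, adjusted p = 0.219 for Rab12, and log2 -0.48, SE 0.46, adjusted p = 0.462 for Rab22a). Rab12 was called when no filter on low counts was used (0.0455). Without MB-3 replicate 1, Rab12 was called at log2 -2.02 (adjusted p = 2.35e-04) and Rab22a at -1.53 (0.00103). Without MB-3 replicate 2 they stood at -0.24 (0.142) and 0.13 (0.489). They were the only members of 52 with a mean of at least 10 CPM whose MB-3 replicates lay 2-fold apart, and both were named after their values had been seen. Among all 7522 genes at that level 62 (0.824%) lay so far apart with MB-3 and 55 (0.731%) with DMSO.

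**Figure D4:**
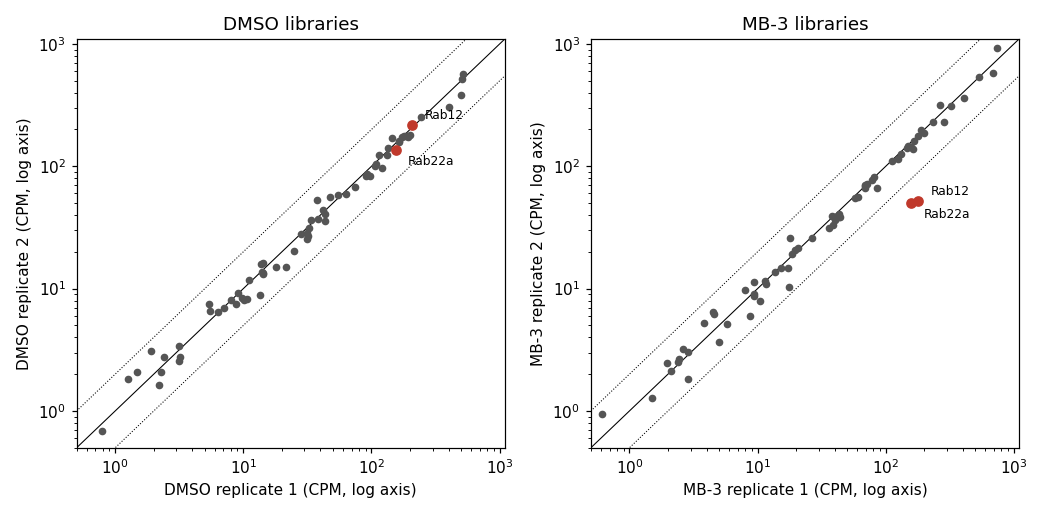
Level of each tested member in replicate 2 against replicate 1 (TMM-scaled CPM, log axes), for DMSO at left and MB-3 at right, with a solid line at equality and dotted lines at 2-fold. Rab12 and Rab22a, in red, lie near the solid line with DMSO and fall under the lower dotted line with MB-3, at 180 against 52.1 and 158.6 against 50.3.

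The TBC proteins come next. Tbc1d16, described as acting on Rab4, went from 0.79 and 0.69 CPM to 2.85 and 3.01 CPM, a 3.91-fold rise (log2 1.97, SE 0.36, edgeR adjusted p = 0.00748). Tbc1d2, also called Armus, inactivates Rab7. It went from 1.49 and 2.07 CPM to 4.47 and 6.47 CPM, a 3.10-fold rise (log2 1.63, SE 0.33, adjusted p = 0.01) that was not called without MB-3 replicate 2 (0.0558). Both genes were rare in these cells, and their groups did not overlap. Tbc1d2b, the relative of Tbc1d2, stood at 21.5 and 15.1 CPM with DMSO and at 18.4 and 19.4 CPM with MB-3, so that its groups overlapped (log2 0.04, SE 0.18, adjusted p = 0.887).

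Tbc1d10a, which has been shown to act on Rab27a and Rab35, rose 2.67-fold from 13.7 and 15.8 CPM to 39.7 and 38.8 CPM (log2 1.42, SE 0.12, edgeR adjusted p = 2.7e-04). Tbc1d10b, its relative, went from 42 and 44.3 CPM to 57.2 and 55.1 CPM (log2 0.38, SE 0.09, adjusted p = 0.0171) and lost the call without MB-3 replicate 1 (0.0792) or 2 (0.0507). Tbc1d12, a TBC protein that binds Rab11, rose 2.31-fold from 9.09 and 9.15 CPM to 20.6 and 21.5 CPM (log2 1.21, SE 0.13, adjusted p = 7.31e-04). Tbc1d20, the main Rab1 inactivator and the most abundant Tbc1d transcript by FPKM, rose 1.72-fold from 193.3 and 173.1 CPM to 321.3 and 310.6 CPM (log2 0.79, SE 0.08, adjusted p = 8.09e-04). In each of these 4 genes both MB-3 libraries stood above both DMSO libraries.

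Smaller rises were seen in Tbc1d15, Tbc1d17, Tbc1d22a, Tbc1d23 and Tbc1d31, with log2 fold changes from 0.34 to 0.57. Tbc1d15, which acts on Rab7, went from 63.2 and 59.5 CPM to 77.6 and 77.8 CPM (SE 0.08, edgeR adjusted p = 0.0216) and lost its call without DMSO replicate 2 (0.0697), MB-3 replicate 1 (0.0877) or MB-3 replicate 2 (0.0902). The call on Tbc1d17 was the least firm, at 0.0463, and any library left out gave 0.0549 to 0.194. It shares 35.2% of its exon bases with Il4i1 on the opposite strand, which held 7069 counts against 633 for Tbc1d17. Tbc1d23, a tether of the trans-Golgi, lost its call without either DMSO replicate (0.0512 and 0.0959) or without MB-3 replicate 1 (0.181). Tbc1d22a did so without MB-3 replicate 1 (0.0546), and Tbc1d31 without either replicate 2 (0.0528 for DMSO, 0.0735 for MB-3).

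Tbc1d13, which acts on Rab35, was the only Tbc1d gene called with a fall of 2-fold or more. It stood at 162.6 and 160.6 CPM with DMSO and at 68.4 and 66.3 CPM with MB-3, a 2.40-fold fall (log2 -1.26, SE 0.08, edgeR adjusted p = 8.6e-05). Its replicates were close in both groups. Tbc1d1, known in muscle for restraining the delivery of glucose transporters to the surface, fell from 120.3 and 96.8 CPM to 71.7 and 72.2 CPM (log2 -0.59, SE 0.12, adjusted p = 0.0101). Tbc1d19 fell at log2 -0.85 (SE 0.19, adjusted p = 0.0144), with adjusted p of 0.0674 without DMSO replicate 1 and 0.0569 without MB-3 replicate 2. Tbc1d22b fell at log2 -0.50 (SE 0.15, adjusted p = 0.0418), but gave 0.225, 0.0639 and 0.168 without DMSO replicate 1, MB-3 replicate 1 and MB-3 replicate 2. The 12 Tbc1d genes not called ranged from -0.57 for Tbc1d7, a subunit of the TSC complex that restrains mTORC1, to 0.54 for Tbc1d25.

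The proteins that carry, activate and read Rabs were taken from lists of 113 other genes of the Rab cycle, of which 99 were tested. Of these 25 rose and 24 fell (49.5% called, beside 37.1% of all tested genes). With any library left out fewer of these genes were called lower, and fewer of all tested genes were too. Without MB-3 replicate 1 fewer of these genes, and fewer of all tested genes, were called higher. Of 8 genes that carry or prenylate Rabs, 2 rose and 0 fell (25% called). Rabac1, which helps to place prenylated Rabs on membranes, went from 212.8 and 216.8 CPM to 270.6 and 271.4 CPM (log2 0.34, SE 0.07, adjusted p = 0.0111, and 0.0502 without MB-3 replicate 2). Chml, a Rab escort protein, went from 3.03 and 1.88 CPM to 5.31 and 5.13 CPM (log2 1.07, SE 0.30, adjusted p = 0.0338), with the call lost without DMSO replicate 2 (0.109), MB-3 replicate 1 (0.112) or MB-3 replicate 2 (0.0921). Gdi2, a GDI carrier that holds inactive Rabs in the cytosol, stood at 465.5 and 466 CPM with DMSO and at 490 and 491.6 CPM with MB-3 and was not called (adjusted p = 0.404). Rabggta, a subunit of the enzyme that prenylates Rabs, was not called (log2 -0.53, SE 0.20, adjusted p = 0.0801) but was called without MB-3 replicate 2 (0.045).

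Among 10 tested Rab inactivators outside the Tbc1d family, 3 rose and 0 fell (30% called, beside 37.1% of all tested genes). Rab3gap2, a subunit of the complex that inactivates Rab3, went from 26.8 and 21.6 CPM to 56.7 and 60.9 CPM (log2 1.28, SE 0.13, edgeR adjusted p = 6.14e-04). Its partner Rab3gap1 was not called (log2 -0.11, SE 0.09, adjusted p = 0.414). Evi5, which has been tied to Rab11, rose at log2 0.57 (SE 0.10, adjusted p = 0.00692). Usp6nl, which acts on Rab5, rose at log2 0.55 (SE 0.11, adjusted p = 0.00858, and 0.0507 without MB-3 replicate 1).

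The 43 tested activators held 9 rises and 13 falls (51.2% called, beside 37.1% of all tested genes), with a median log2 fold change of -0.12. The 3 smallest p-values in this list belonged to the Rab5 activators Rin2 and Rin3 and to a DENN-domain gene. Rin2 went from 123.4 and 136 CPM to 6.03 and 5.91 CPM (log2 -4.44, SE 0.11, edgeR adjusted p = 4.48e-06). Rin3 went from 11.5 and 9.71 CPM to 1.23 and 1.17 CPM (log2 -3.14, SE 0.23, adjusted p = 1.83e-04). Both MB-3 libraries were far under both DMSO libraries for each gene, while the Rab5 genes themselves were not called. The DENN-domain gene, listed as E330009J07Rik (Dennd11), went the other way, from 24.1 and 19.9 CPM to 66.7 and 55.7 CPM (log2 1.47, SE 0.14, adjusted p = 5.17e-04).

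The 38 tested effectors, the proteins that bind active Rabs, held 11 rises and 11 falls (57.9% called, beside 37.1% of all tested genes). Rilpl2, which binds phosphorylated Rabs at the centrosome, went from 212.5 and 216.8 CPM to 1192 and 1094 CPM (log2 2.41, SE 0.08, edgeR adjusted p = 1.02e-05). Plekhm1, which links Rab7 to the fusion of lysosomes, went from 20.1 and 21.2 CPM to 67.9 and 68.2 CPM (log2 1.72, SE 0.09, adjusted p = 4.87e-05). Rab11fip1, a partner of Rab11 in recycling, fell from 77.2 and 59.7 CPM to 10.4 and 9.37 CPM (log2 -2.79, SE 0.16, adjusted p = 6.16e-05). Lrrk2, the kinase that phosphorylates Rab8a, Rab8b, Rab10, Rab12 and other Rabs, also fell, from 53.1 and 49 CPM to 16.5 and 17.2 CPM (log2 -1.60, SE 0.10, adjusted p = 9.45e-05), and was picked out after its values had been seen.

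Rabs were then placed beside their known partners. The grouping by partner was made after the values had been seen and is a description. Of all tested genes 37.1% were called, 16.9% as higher and 20.2% as lower, and no partner group was tested against these shares. For Rab7 the activator subunit Mon1a rose, Mon1b was not called (log2 0.10) and Ccz1 fell. Of 3 inactivators 2 rose (Tbc1d2 and Tbc1d15) and Tbc1d5 was not called. Of 5 effectors Plekhm1 and Rubcn (listed as 1700021K19Rik) rose, and Rilp, Vps39 and Vps41 were not called. The Ccz1 call was lost without MB-3 replicate 1 (0.052) or 2 (0.0583), and that of Rubcn without any of the libraries (0.0797 to 0.131). For Rab32 and Rab38 the activator is BLOC-3, made of Hps1 and Hps4. Hps1 was lower (log2 -0.84, adjusted p = 0.016, and 0.0521 without DMSO replicate 1 and 0.0539 without MB-3 replicate 2), and Hps4 was not called (log2 0.84, adjusted p = 0.0637). The effector Ankrd27 was not called. For Rab27a, which was lower, the inactivator Tbc1d10a rose and the activator Madd was not called (log2 0.30, edgeR adjusted p = 0.293). Unc13d, the only tested one of 9 effectors, fell, with the call lost without DMSO replicate 1 or MB-3 replicate 1.

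For Rab35, which was higher, Dennd1b and Dennd1c among the 3 activators fell and Micall1 among its effectors rose, while its inactivators split, Tbc1d10a and Tbc1d10b rising and Tbc1d13 falling. In edgeR the calls on Dennd1b (0.0594 to 0.292) and Dennd1c (0.0546 to 0.197) were lost whichever library was left out, and that of Micall1 without MB-3 replicate 1 (0.0753). For Rab1 both GTPases and the inactivator Tbc1d20 rose together. For Rab5 the 3 GTPases were not called, while the activators Rin2 and Rin3 fell and Rabgef1, Rin1 and Gapvd1 were not called. The inactivator Usp6nl rose, and of 5 effectors Rabep1 and Rbsn rose, Appl1 fell, and Eea1 and Appl2 were not called. The call on Rabep1 was lost without either replicate 2 (0.085 for DMSO, 0.118 for MB-3), and that on Rbsn without MB-3 replicate 1 (0.063).

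**Figure D5:**
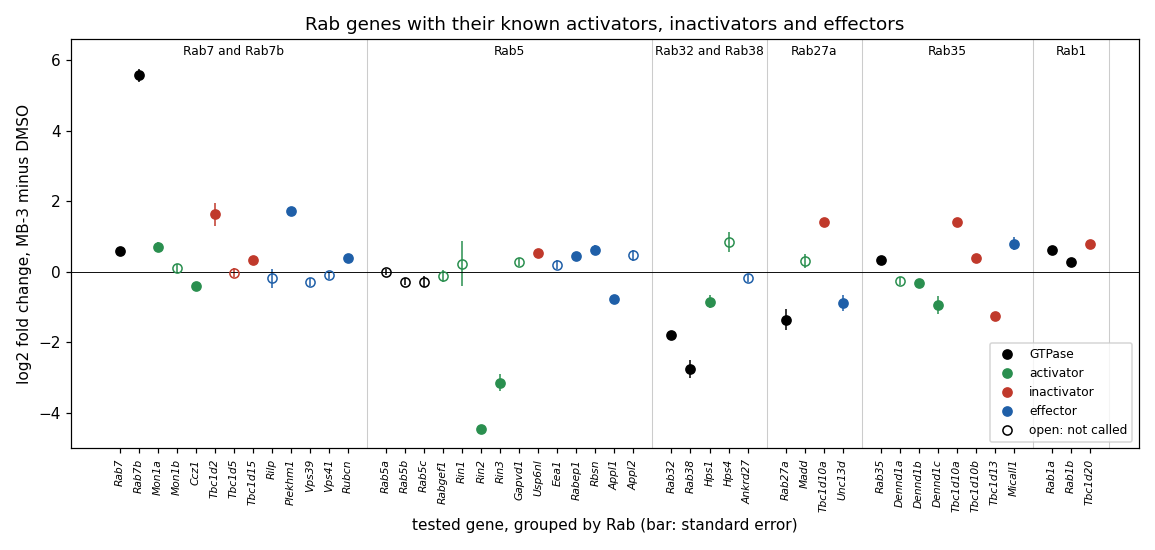
Log2 fold change (MB-3 minus DMSO, edgeR) of 6 Rab groups with tested genes known to activate, inactivate or bind them, with bars for 1 standard error, colours for the role and open circles where the test did not call the gene. Rin2 at -4.44 and Rin3 at -3.14 stand far under the 3 open Rab5 circles, and both Rab32 and Rab38 lie below 0 while Rab1a, Rab1b and Tbc1d20 lie above it.

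Promoter sequence was read for the 62 members that RefSeq's promoter table (GRCm38.p6) holds, over the 250 bases before each listed start, on both strands. A gene was counted if any of its starts had a match. Rab43 has 4 listed starts, and the sequence of a single start is shown. The 5 motifs searched were the antioxidant response element core TGACNNNGC, the E-box CACGTG, the CLEAR palindrome of lysosomal genes, the interferon-stimulated response element core and the AP-1 site TGANTCA. The CLEAR palindrome is the E-box with GT before it and AC after it, the interferon-stimulated core is GAAA, any 2 bases and GAAA again, and the AP-1 site can overlap the antioxidant core. The sequences below were chosen to show members with and without a match among those that rose (Rab43 and Tbc1d12), fell (Rab32, Tbc1d13 and Rab21) or were not called (Rab5a). They run 5′ to 3′ on the gene's strand and end at the base before the start, and capitals mark motif matches. They cover, in turn, chr6:87812165-87812414 (minus strand), chr19:38836329-38836578 (plus), chr10:10558208-10558457 (minus), chr2:30133496-30133745 (plus), chr10:115315592-115315841 (minus) and chr17:53478984-53479233 (plus).
Rab43: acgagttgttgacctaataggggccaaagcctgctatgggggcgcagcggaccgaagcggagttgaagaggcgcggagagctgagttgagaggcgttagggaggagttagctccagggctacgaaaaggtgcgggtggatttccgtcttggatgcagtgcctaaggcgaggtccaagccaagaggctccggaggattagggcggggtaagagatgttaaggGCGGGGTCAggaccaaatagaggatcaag
Tbc1d12: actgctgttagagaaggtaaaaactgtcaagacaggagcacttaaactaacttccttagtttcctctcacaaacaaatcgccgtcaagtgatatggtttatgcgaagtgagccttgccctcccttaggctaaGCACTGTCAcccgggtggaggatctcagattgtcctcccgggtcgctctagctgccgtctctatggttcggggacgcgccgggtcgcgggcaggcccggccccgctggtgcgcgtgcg
Rab32: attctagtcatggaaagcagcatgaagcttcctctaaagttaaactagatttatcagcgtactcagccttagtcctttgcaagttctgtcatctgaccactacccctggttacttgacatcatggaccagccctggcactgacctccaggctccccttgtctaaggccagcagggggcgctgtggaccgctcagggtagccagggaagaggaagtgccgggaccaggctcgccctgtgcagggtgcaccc
Tbc1d13: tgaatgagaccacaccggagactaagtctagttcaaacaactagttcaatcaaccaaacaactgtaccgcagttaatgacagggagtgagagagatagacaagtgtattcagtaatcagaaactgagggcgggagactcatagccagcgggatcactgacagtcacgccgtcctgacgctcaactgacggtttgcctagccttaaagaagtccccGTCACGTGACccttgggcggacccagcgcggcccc
Rab21: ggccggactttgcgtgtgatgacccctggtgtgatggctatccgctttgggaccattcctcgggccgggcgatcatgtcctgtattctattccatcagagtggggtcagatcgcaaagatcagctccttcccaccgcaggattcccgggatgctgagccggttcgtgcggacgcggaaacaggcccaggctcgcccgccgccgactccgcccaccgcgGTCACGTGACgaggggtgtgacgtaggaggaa
Rab5a: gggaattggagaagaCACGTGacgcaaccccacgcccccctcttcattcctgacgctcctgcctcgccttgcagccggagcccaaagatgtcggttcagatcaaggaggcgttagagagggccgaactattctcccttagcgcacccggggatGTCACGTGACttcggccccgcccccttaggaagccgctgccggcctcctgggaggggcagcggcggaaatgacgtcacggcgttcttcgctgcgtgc

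The antioxidant response element core was found before 12 of 62 members (19.4%), against 11.5% of 27025 genes in the table and 14.2% of those tested here. By call it stood before 6 of 16 higher members (Rab43, Rab7, Rab8b, Tbc1d12, Tbc1d22a and Tbc1d23) and 1 of 9 lower members (Tbc1d22b). Of 37 members that were not called or not tested, 5 held it. For no motif was the share worked out over all genes called higher or lower, and a link between motif and call was not tested. The CLEAR palindrome stood before 3 members, Rab21 and Tbc1d13, which fell, and Rab5a, which was not called, and before 0.27% of all genes and 0.655% of tested genes. The E-box, counted with those palindromes, stood before 9 of 62 members (14.5%), against 6.86% of all genes and 10.1% of tested genes. Rab19 was the only member with the interferon-stimulated core, which 3.46% of all genes and 3.45% of tested genes held. The AP-1 site stood before 3 members (4.8%), against 7.82% of all genes and 5.60% of tested genes. In the Rab32 window none of the 5 motifs was found. A match describes letters and not a bound site.

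Few members were close neighbours. The 77 members lay on 20 chromosomes, and 5 pairs were within 1 Mb of each other. Rab43 and Rab7, 186.9 kb apart on chromosome 6, both rose. Tbc1d15 and Rab21, 38.4 kb apart on chromosome 10, moved in opposite directions, at log2 0.34 and -0.39. Rab31 was higher and Rab12, 721.8 kb away on chromosome 17, was not called.

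Calls were compared over 11 alternative fits. Of the 31 called members 15 were called in every alternative that tested them: Rab1a, Rab7, Rab7b, Rab31, Rab43, Tbc1d10a, Tbc1d12, Tbc1d16 and Tbc1d20 as higher, and Rab19, Rab32, Rab33b, Rab38, Tbc1d1 and Tbc1d13 as lower. Of the 12 members changed at least 2-fold, all but Rab6b, Rab27a and Tbc1d2 were in this group. Some calls were lost with all libraries in use. DESeq2 did not call Rab6b, Rab20 (adjusted p = 0.0903), Tbc1d17 (0.15), Tbc1d22b (0.106) or Tbc1d23 (0.0757). The limma fit did not call Rab20 (0.0597), Tbc1d17 (0.0819) or Rab8b (0.0526). Rab20 was called in 3 of 11 alternatives and Tbc1d17 in 4. Among other Rab-cycle genes given above, DESeq2 did not call Chml (0.0618), Dennd1b (0.221), Dennd1c (0.127) or Rubcn (0.162).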

How the data were processed

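Counts per gene were deposited by the authors as whole, unnormalized numbers, and FPKM values stand beside them in the same table, per the file headers. In 100% of count and FPKM pairs the FPKM was the count divided by the library total and by a constant of the gene, within 0.1%. This constant was taken as the gene length, but it can differ much from the GENCODE exon length, as for Tbc1d24 (44960 against 8557 bases). HISAT2, StringTie 1.3.0, edgeR, mm10 and GRCm38.p4 are named in the submitters' processing notes. The sources used here do not give the strand setting, the treatment of multimapping reads or the annotation release. The test was edgeR 4.0.16 under R 4.3.3 (filterByExpr, TMM, glmQLFit, glmQLFTest, group-only model), with p-values adjusted over 11841 genes and called under 0.05. SE is the absolute log2 fold change over the square root of F. The common biological coefficient of variation was 0.126. A single count is worth 0.0469 to 0.0641 CPM. Replicates differed beyond sampling noise (chi-square per degree of freedom 13.0 for DMSO, 11.1 for MB-3). Exon overlaps came from GENCODE M21, which lists all 77 members as protein-coding.

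Members and lists were chosen with earlier results of these data known. Genes with values in every library were called members at 2-fold or more, the 5 Rab and 3 Tbc1d genes with highest FPKM, their paralogues, and the 3 smallest p-values in each list; the other genes given with values were added after seeing them. Alternatives were other scalings and filters, DESeq2 1.42.0, limma 3.58.1 on log2(FPKM + 0.1), each library left out, and a replicate block.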

Additional observations from a re-analysis of the deposited data

How the results depend on the processing

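All results rest on 2 libraries per group, and members under about 1 CPM rest on few counts. Over all tested genes, too, calls in either direction became fewer with any library left out. Over the fits with 1 library left out, the count of members called higher was 11 to 19 and of those called lower 8 to 11. For Rab genes the counts were 5 to 9 higher and 6 to 8 lower, for Tbc1d genes 6 to 10 higher and 2 to 4 lower, and for the other Rab-cycle genes 14 to 26 higher and 11 to 17 lower. Without a filter on low counts 11 Rab genes were lower in place of 7, and DESeq2 called 15 other Rab-cycle genes lower in place of 24, as it called 1893 of all genes lower in place of 2392. The cause was not tested. Of 972 single-gene values 813 kept direction and call, 139 lost the call, 12 gained it and 8 changed sign. The sign changes were in uncalled genes: Rab5a gave 0.021 with RLE size factors, 0.019 with DESeq2 and -0.065 to 0.061 with a library left out, Rab6a -0.07 to 0.079, Tbc1d2b -0.179 to 0.371 and -0.002 with library totals only, and Rab22a -1.528 to 0.127. Rab5b was called in 6 alternatives, with adjusted p of 0.0204 to 0.0445. Counted rather than taken per length, Rab7b made up 2.02% of Rab7 and Rab7b with DMSO and 39.4% with MB-3. Per GENCODE exon base, chosen after seeing the data, it made up 1.15% and 26.8%.

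With the replicate number as a block, 22 members were higher and 14 lower, and 28 and 26 of the other Rab-cycle genes, while all genes went from 1999 to 2340 higher and from 2392 to 2706 lower. Rab12 was then called (adjusted p = 0.0418). The labels give same-numbered libraries only the number in common. Their deviations from the group means correlated at 0.217 over genes. With 2 libraries per group the deviations mirror each other, so both pairs give the same value. The fibroblast and mesothelium markers summed higher in replicate 2 of both groups (14.6 and 36.8 CPM with DMSO, 22.2 and 46.1 with MB-3).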
